A study of Mus musculus with 2 samples.

Results

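Genes of the cornified envelope, 10 in number, were described across the skin depth and the keratinocyte-rich tissue of 2 spatial transcriptomics sections: Lor, Ivl, Sbsn, Krtdap, Evpl, Ppl, Tgm1, Tgm3, Tgm5 and Casp14. They were taken by symbol from the gene list of the counts, and all 10 were present among 19465 genes. One section came from an S1pr2 fl/fl mouse (S1pr2 f/f in the labels) and 1 from an S1pr2 fl/fl K14-Cre mouse (S1pr2 f/f K14-Cre). In the latter, keratin 14 promoter Cre is meant to remove the sphingosine-1-phosphate receptor gene S1pr2 from keratinocytes, those of the hair follicles included. The study describes these mice as without the receptor in keratinocytes only. Both animals carried the floxed S1pr2 allele, were 8 weeks old, were depilated 1 day before treatment and received 62.5 mg of 5% imiquimod (IMQ) cream daily for 7 days. Untreated skin was not analysed here. The sections are called fl/fl and K14-Cre below. With 1 section of 1 mouse per genotype, genotype, animal, section and library cannot be told apart and no test between them was possible. Spots are not replicates, so every 95% interval given covers counting error only.

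The cornified envelope is the protein shell that replaces the plasma membrane of keratinocytes as they leave the granular layer. Envoplakin (Evpl) and periplakin (Ppl) form a scaffold under the membrane on which involucrin (Ivl) is laid down, and loricrin (Lor) becomes its main component. Transglutaminases join these precursors by isopeptide bonds: Tgm1 is anchored to the membrane, while Tgm3 and Tgm5 act in the cytosol. Casp14 is a caspase of cornifying cells that takes part in the breakdown of filaggrin. Suprabasin (Sbsn) and keratinocyte differentiation-associated protein (Krtdap) are secreted proteins of differentiating keratinocytes.

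In GRCm38.p6, the patched assembly of mm10, Lor and Ivl are both on chromosome 3, 488 kb apart, within the epidermal differentiation complex. Sbsn and Krtdap are neighbours on chromosome 7, 31.8 kb apart, with Dmkn as the 1 protein-coding gene between them. RefSeq promoter windows, 250 bases before the start of transcription and 50 bases from it on, were found for 8 of the 10 members (9 windows, as Tgm1 has 2). Each window was searched on both strands for TGANTCA (an AP-1 site, which reads the same on both strands), TATAAA and AACCNGTT (a grainyhead-like site). The first was found in the windows of Lor, Ivl, Sbsn and Krtdap, and it was found for 8.97% of all 27025 genes with a window. TATAAA was found for Lor, Ivl, Krtdap and Tgm3, against 15.7% of all genes. AACCNGTT was found for Tgm5 alone among the members, against 2.35% of all genes. The matches to the different motifs did not overlap each other in the windows of the members. These matches are a description of letters and not of binding. The 4 windows with TGANTCA are shown in full so that the matches can be read in place. The upstream window of Tgm1 is shown as an example of a window without it. Casp14, Tgm3 and Tgm5 also have no TGANTCA in their windows. Any relation of the matches to the levels below was not tested. Capitals mark TGANTCA.
Lor, chr3:92083093-92083392, minus strand: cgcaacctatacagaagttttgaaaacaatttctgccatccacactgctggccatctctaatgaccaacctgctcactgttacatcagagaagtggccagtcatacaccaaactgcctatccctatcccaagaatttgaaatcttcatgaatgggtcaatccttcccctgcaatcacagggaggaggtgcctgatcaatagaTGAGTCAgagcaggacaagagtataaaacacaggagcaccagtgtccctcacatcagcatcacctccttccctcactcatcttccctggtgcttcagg
Ivl, chr3:92573686-92573985, minus strand: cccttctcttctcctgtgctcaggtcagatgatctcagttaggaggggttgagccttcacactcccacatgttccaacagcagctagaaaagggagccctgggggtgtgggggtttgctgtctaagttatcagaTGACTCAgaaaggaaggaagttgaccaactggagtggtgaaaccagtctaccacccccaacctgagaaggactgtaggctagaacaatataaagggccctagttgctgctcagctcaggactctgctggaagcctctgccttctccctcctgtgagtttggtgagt
Sbsn, chr7:30751221-30751520, plus strand: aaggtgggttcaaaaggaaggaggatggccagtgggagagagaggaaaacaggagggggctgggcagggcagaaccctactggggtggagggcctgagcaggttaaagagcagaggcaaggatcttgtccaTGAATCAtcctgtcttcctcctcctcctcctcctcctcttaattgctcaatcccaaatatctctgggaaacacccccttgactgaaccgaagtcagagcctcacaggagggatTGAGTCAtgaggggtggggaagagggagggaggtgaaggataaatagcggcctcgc
Krtdap, chr7:30787655-30787954, plus strand: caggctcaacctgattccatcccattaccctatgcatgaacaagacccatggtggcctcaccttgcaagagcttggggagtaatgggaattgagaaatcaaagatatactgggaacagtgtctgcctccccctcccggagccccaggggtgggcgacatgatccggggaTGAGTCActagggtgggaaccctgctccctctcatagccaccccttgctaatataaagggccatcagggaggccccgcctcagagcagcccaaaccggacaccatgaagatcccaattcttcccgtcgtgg
Tgm1, chr14:55713443-55713742, minus strand: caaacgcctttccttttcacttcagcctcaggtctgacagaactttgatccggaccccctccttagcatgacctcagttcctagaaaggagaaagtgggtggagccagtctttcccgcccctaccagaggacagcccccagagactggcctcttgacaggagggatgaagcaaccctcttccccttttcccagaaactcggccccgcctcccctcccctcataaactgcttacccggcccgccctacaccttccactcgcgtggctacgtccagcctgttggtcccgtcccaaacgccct
The match begins 48 bases before the start in Lor, 116 in Ivl and 81 in Krtdap. Sbsn has 2 matches, which begin 119 and 6 bases before its start.

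The counts are unique molecular identifiers (UMIs), each the tag of 1 captured probe pair, per gene and array spot. Over tissue, 1282 spots with 5315351 UMIs lay in the fl/fl section and 981 spots with 2845826 UMIs in the K14-Cre section. Levels are UMIs of a gene per 1000000 UMIs of the same region (CPM). Since the number of probe pairs per gene was not known here, levels were compared between regions and sections and never between genes. Keratinocyte-rich spots were those with at least 500 UMIs in the top 15% of their own section by the share of 15 keratinocyte genes, none of them a member, unless another tissue list ranked higher. This gave 154 spots with 900202 UMIs in the fl/fl section and 126 spots with 411619 UMIs in the K14-Cre section. A spot holds several cells, so fewer keratinocytes in a spot and less RNA per keratinocyte cannot be told apart.

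The markers of these spots are given next. The 15 keratinocyte genes chose the spots, so their higher sum there was built in and is no check of the label. All 15 keratinocyte genes had UMIs in the keratinocyte-rich spots of both sections, and 8 of 15 in the fl/fl section and 13 of 15 in the K14-Cre section were at least 2-fold higher than in the other spots. Krt15 went the other way, with 85.5 against 364 CPM in the fl/fl and 112 against 205 CPM in the K14-Cre section. So did Krt77 in the fl/fl section, with 4.44 against 12.6 CPM. In the fl/fl section Krt10 stood at 27495 against 3836 CPM but Krt5 at 4035 against 2852 CPM. Krt10 thus set the fl/fl spots apart more than Krt5 did. The keratinocyte list took a median of 9.50% of the UMIs of a keratinocyte-rich spot in the fl/fl section (7.59% to 18.2%) and 5.46% in the K14-Cre section (3.98% to 9.40%). The sections thus differed in the share of this list even within these spots. Of its genes, Krt1 and Krt10 summed to 41705 CPM in the fl/fl and 6943 CPM in the K14-Cre section. Krt5 and Krt14 summed to 35236.5 and 33487 CPM, so the share of the list does not measure keratinocyte content alone. Muscle genes summed to 741 CPM in the fl/fl and 2162 CPM in the K14-Cre keratinocyte-rich spots, and none of the 8 was at 0. Dermal genes summed to 3343 and 4835 CPM with none of 9 at 0, and immune genes to 30847 and 10177 CPM with none of 7 at 0. Most of the immune sum came from S100a8 and S100a9, which keratinocytes also make. They stood at 14632 and 16071 CPM in the fl/fl and at 7417 and 2604 CPM in the K14-Cre section. Ptprc (48.9 and 65.6 CPM), Itgam (10.0 and 21.9) and Lyz2 (2.22 and 4.86) were higher in the K14-Cre section. Cd68 (60.0 and 48.6) and Cd3e (23.3 and 14.6) were lower. The sum therefore does not measure immune content. Hair genes were near 0, at 12.2 CPM with 3 of 11 at 0 in the fl/fl section and at 55.9 CPM with 2 of 11 at 0 in the K14-Cre section. The part of these contents in the differences below was not tested. Chemosensory receptor genes, 1226 in number, served as a measure of background per gene. Their mean was 1.10 CPM in the fl/fl and 6.82 CPM in the K14-Cre keratinocyte-rich spots, so low levels lie nearer to background in the latter. S1pr2 itself had 21 UMIs in the fl/fl and 6 UMIs in the K14-Cre keratinocyte-rich spots, a ratio of 0.625 (0.206 to 1.60), so a difference in the targeted gene was not detectable at this depth.

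All 10 members were higher in keratinocyte-rich spots than in the other spots of the same section with at least 500 UMIs. All 10 were at least 2-fold higher in each section, against 4.93% of the 8461 genes with at least 100 UMIs in the fl/fl section and 12% of 5755 such genes in the K14-Cre section. The spots were chosen on other keratinocyte genes, which are expressed in the same cells, so this count shows where the members lie. Summed over the members, the level was 32264 CPM in keratinocyte-rich and 10428 CPM in other spots of the fl/fl section, a 3.09-fold difference (3.05 to 3.14). The keratinocyte list itself differed 3.10-fold there. In the K14-Cre section the members summed to 16836 CPM and 2171 CPM, a 7.75-fold difference (7.48 to 8.04), beside 6.75-fold for the keratinocyte list. The contrast between the spots was thus sharper in the K14-Cre section for the members and for the list alike.

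The order of the members by this contrast differed between the sections. Lor was 5.34-fold higher in keratinocyte-rich than in other spots of the fl/fl section (5.10 to 5.58), the largest of the 10 there, followed by Casp14 with 4.55-fold (4.31 to 4.79). Their intervals did not overlap. Ivl with 3.59-fold and Tgm3 with 3.47-fold came next, with overlapping intervals. Tgm1 had the smallest contrast with 2.53-fold (2.31 to 2.76), overlapping those of Tgm5, Sbsn, Ppl and Krtdap. Within the K14-Cre section Casp14 led with 11.1-fold (lower bound 9.53), and its interval overlapped those of Lor with 9.60-fold, Tgm3 with 9.33-fold, Evpl with 8.74-fold and Tgm1 with 8.49-fold (7.51 to 9.61). Tgm5 was the least confined with 3.93-fold (2.73 to 5.61). Tgm1 thus had the smallest contrast in the fl/fl section and 1 of the 5 largest in the K14-Cre section.

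**Figure D1:**
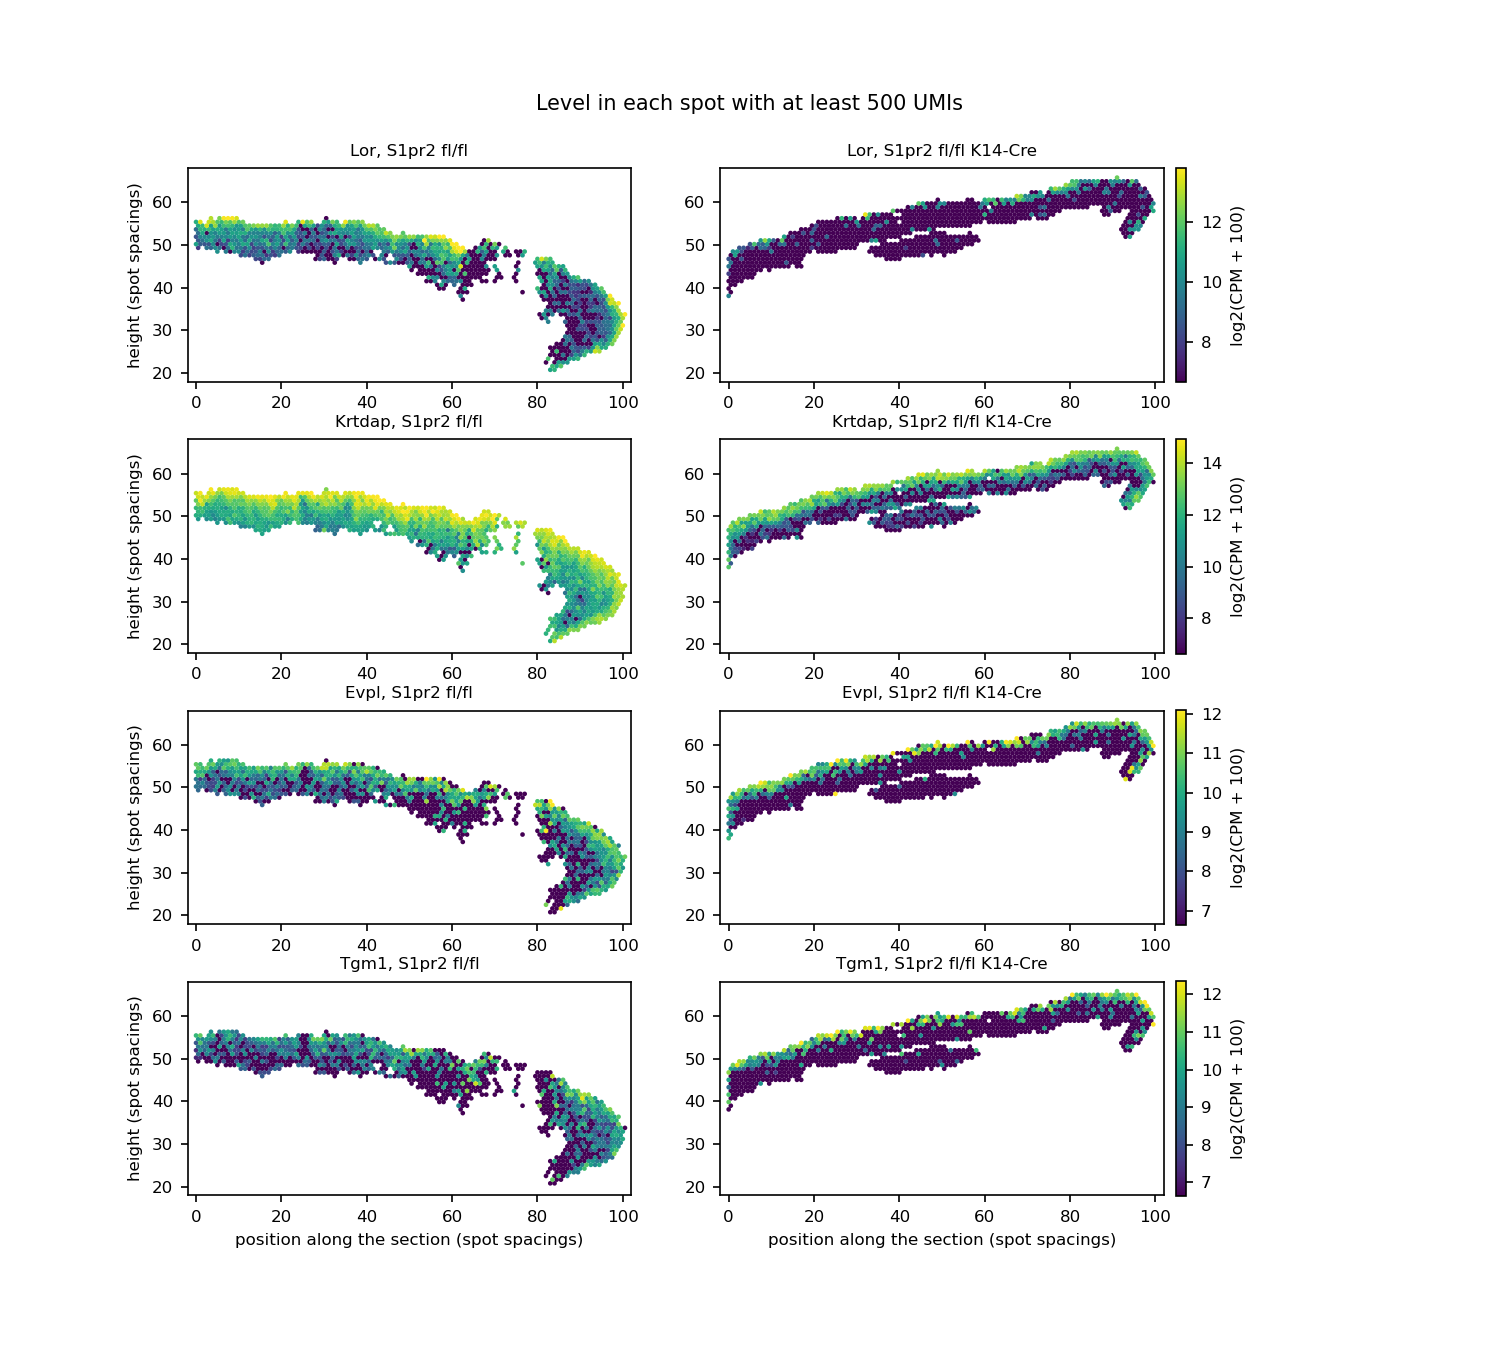
Level of Lor, Krtdap, Evpl and Tgm1 in every spot with at least 500 UMIs, as log2(CPM + 100), by the position along the section and the height in units of the spacing between spots, with the fl/fl section on the left, the K14-Cre section on the right and 1 colour scale per gene. High spots follow the upper edge in both sections and the outer side of the bent right end of the fl/fl section, and Lor is high in few K14-Cre spots, where 58 of 126 keratinocyte-rich spots had no Lor UMI.

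The depth of a spot was its distance to the nearest spot of the upper tissue edge, in steps of 1 spot spacing. Each member was higher in the uppermost than in the next step of both sections, with the exception of Tgm5 in the K14-Cre section, which had 89.2 CPM in the uppermost and 92.3 CPM in the next step. In the fl/fl section the 2 uppermost steps held 69.2% of the members' UMIs (68.8% to 69.5%), while they held 40.4% of all UMIs. The same steps of the K14-Cre section held 89.9% (89.4% to 90.4%), with 39.5% of all UMIs. The right end of the fl/fl section bends downward, so part of its surface counts as deep. Without the bent array columns, which left 873 of 1203 spots, the fl/fl share was 74.6%, and that of the K14-Cre section with 914 of 970 spots was 90.6%.

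Krtdap went with depth in the fl/fl section from 19488 CPM in the uppermost step to 12074 CPM in the next, 6735 CPM in the one after and 2877 CPM 7 steps down. The K14-Cre section began lower, with 8905 CPM and 3193 CPM, and stood at 571 CPM in the one after. Lor went from 4046 CPM to 1370 CPM over the first steps of the fl/fl section and from 765 CPM to 126 CPM in the K14-Cre section. Lor was therefore 2.95-fold (2.79 to 3.13) and 6.08-fold (4.74 to 7.89) higher in the uppermost than in the next step. Among the members Tgm3 had the steepest such drop in the K14-Cre section at 6.72-fold (5.01 to 9.18), with an interval overlapping that of Lor, while Lor had the steepest in the fl/fl section. The plakins Evpl and Ppl and the enzyme Tgm5 had shallow drops in the fl/fl section, at 1.51-fold (1.39 to 1.64), 1.60-fold (1.42 to 1.81) and 1.39-fold (1.15 to 1.69). Krtdap with 1.61-fold (1.58 to 1.65) and Tgm1 with 1.75-fold (1.57 to 1.94) were close to Ppl. The keratin Krt14 dropped 1.47-fold there, so shallow drops were not particular to the plakins and Tgm5.

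From the fourth step on, the members summed to 6581 CPM in the fl/fl section and to 674 CPM in the K14-Cre section, and without the bent columns to 6220 CPM and 618 CPM. The keratinocyte list summed there to 22176 CPM and 2699 CPM, so it differed between the sections in the same direction. Muscle genes began higher up in the K14-Cre section: they summed to 10216 CPM in its second step and to 1228 CPM in the second step of the fl/fl section. A given step therefore did not hold the same layers in both sections. The makeup of the members' UMIs was compared between the surface and the deep steps of the same section. Lor made up 12.4% of the members' UMIs in the uppermost step and 10.3% from the fourth step on in the fl/fl section, against 4.93% and 5.07% in the K14-Cre section. Tgm1 made up 2.65% and 3.52% in the fl/fl section, against 9.90% and 8.52% in the K14-Cre section. Other members shifted more in the K14-Cre section, where Tgm5 made up 0.575% of the members' UMIs at the surface and 2.16% in the deep steps, on 47 and 20 UMIs, Ppl 1.99% and 3.88%, and Sbsn 4.09% and 6.04%. In those deep steps Tgm5 stood at 14.5 CPM and Ppl at 26.2 CPM, while the mean of the chemosensory receptor genes lay between 3.06 and 6.53 CPM. These shifts thus rest on low levels. The source of the deep UMIs was not tested.

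**Figure D2:**
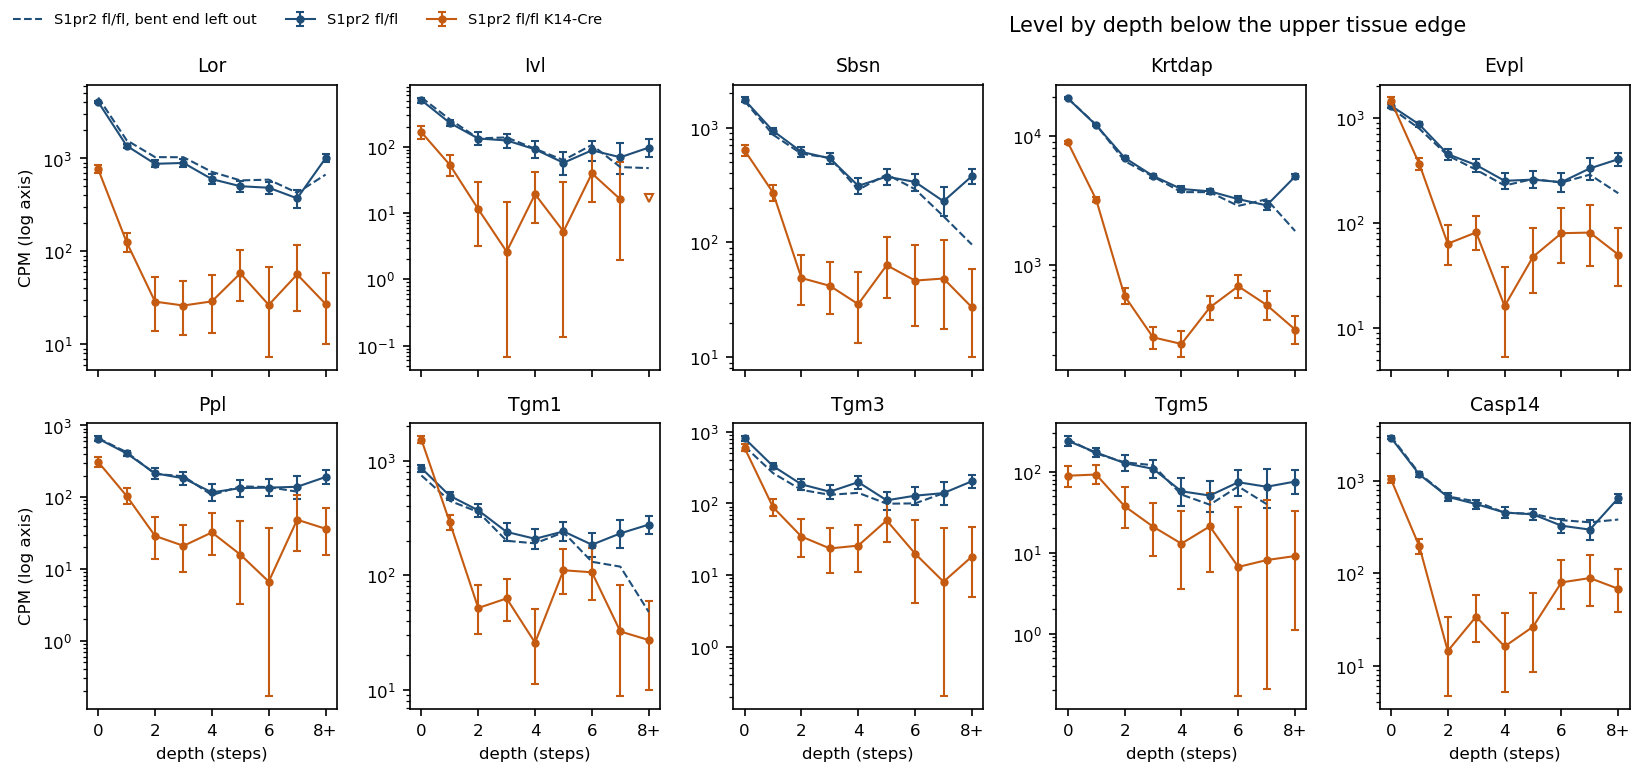
Level of each member in CPM, on a log axis, by depth in steps of 1 spot spacing below the upper tissue edge, with exact Poisson 95% intervals, for the fl/fl (blue) and K14-Cre (orange) sections; the last point pools 8 and more steps, the dashed line leaves out the bent array columns of the fl/fl section, and the open triangle is the upper limit of a level with 0 UMIs. All members but Tgm1 and Evpl lie lower in the K14-Cre section at the surface, and all 10 are lower there when the fourth and deeper steps are pooled.

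The next question was how the members differed between the sections in keratinocyte-rich spots. Of the 10 members, 6 were at least 2-fold lower in the K14-Cre than in the fl/fl section and 0 were at least 2-fold higher. These counts became 1 lower (Lor) and 1 higher (Tgm1) both when scaled to the keratinocyte list and in spots of matched keratinocyte share. The list holds Krt1 and Krt10, which were themselves lower in the K14-Cre section, so neither recount reflects keratinocyte number alone. Scaling to Krt5 and Krt14 is given with the other settings at the end. Over all 2286 genes with at least 100 UMIs in these spots of both sections together, 14.6% were at least 2-fold lower and 13% at least 2-fold higher. The median log2 ratio of K14-Cre over fl/fl was −1.03 over the members and 0.0037 over all 2286 genes. Summed over the members, the K14-Cre level was 0.522 of the fl/fl level (0.508 to 0.536), and 0.518 without Krtdap, which supplies most of the members' UMIs.

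Among the precursors, Lor stood at 4415 CPM (4278 to 4554) in the fl/fl and 792 CPM (708 to 883) in the K14-Cre keratinocyte-rich spots, and was 5.57-fold lower in the latter (4.98 to 6.26). Single spots ranged from 0 to 41584 CPM with a median of 4002 CPM in the fl/fl section, and from 0 to 12158 CPM with a median of 253 CPM in the K14-Cre section, so the spots of the sections overlapped in their range. Lor UMIs were found in 151 of 154 fl/fl spots (98.1%, Clopper-Pearson 94.4% to 99.6%) and in 68 of 126 K14-Cre spots (54.0%, 44.9% to 62.9%). The median depths of these spots were 4193.5 and 2548.5 UMIs. Muscle-rich spots, which should lack Lor, held a Lor UMI in 52.4% of 147 spots in the fl/fl section and in 3.73% of 134 spots in the K14-Cre section, at median depths of 2756 and 2663.5 UMIs. With every spot thinned to 1000 UMIs, which left out 13 and 10 keratinocyte-rich and 33 and 13 muscle-rich spots, the shares were 91.5% and 44.8% in keratinocyte-rich and 27.2% and 1.65% in muscle-rich spots. The fl/fl section thus had the higher share in both regions. Taking off the muscle-rich level of each section left a log2 ratio for Lor of −2.36, against −2.48 without this step (chosen after seeing the data).

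Ivl stood at 498 CPM in the fl/fl and 170.1 CPM in the K14-Cre section, 2.93-fold lower in the latter (2.27 to 3.82), on 448 and 70 UMIs. Sbsn stood at 1605 and 699.7 CPM, 2.29-fold lower (2.02 to 2.61). Krtdap had UMIs in every keratinocyte-rich spot of both sections and stood at 18749 CPM (18467 to 19034) and 9839 CPM (9538 to 10147), 1.91-fold lower (1.84 to 1.97). Its spot values ran from 8874 CPM over a median of 19524 CPM to 34768 CPM in the fl/fl section and from 2670.2 CPM over 9719 CPM to 24014 CPM in the K14-Cre section, so that they overlapped.

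The 2 plakins differed from each other. Evpl stood at 1401 CPM (1325 to 1480.3) in the fl/fl and 1572 CPM (1453 to 1698) in the K14-Cre section, a ratio of 1.12 (1.02 to 1.23), which turned to −0.52 on the log2 scale with TMM scaling. Ppl stood at 645 CPM (594 to 700.1) and 316 CPM (264 to 375), 2.04-fold lower in the K14-Cre section (1.69 to 2.49), and it was at least 2-fold lower in 7 of 15 other settings. The envelope scaffold genes thus did not move together: there were 0.461 Ppl UMIs for each Evpl UMI in the fl/fl and 0.201 in the K14-Cre section.

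The transglutaminases differed in direction. Tgm1 was higher in the K14-Cre section, with 1540.3 CPM (1423 to 1665) against 841 CPM (782 to 903), a ratio of 1.83 (1.65 to 2.04). Its log2 ratio of 0.87 became 0.18 with TMM scaling and −0.14 over all spots. Tgm3 stood at 764 CPM in the fl/fl and 619.5 CPM in the K14-Cre section, 1.23-fold lower in the latter (1.07 to 1.43), but higher at 0.43 on the log2 scale when scaled to the keratinocyte list. Tgm5 stood at 269 and 131 CPM, 2.05-fold lower (1.52 to 2.81), on 54 UMIs in the K14-Cre section, and was at least 2-fold lower in 10 of 15 other settings. Casp14 stood at 3077 CPM (2964 to 3194) and 1156 CPM (1055 to 1265), 2.66-fold lower (2.41 to 2.94). Tgm1 was the member with the highest ratio, Evpl the next, and the 2 intervals did not overlap.

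These ratios can be set against each other without any scaling. There were 0.190 Tgm1 UMIs for each Lor UMI in the fl/fl and 1.94 in the K14-Cre keratinocyte-rich spots, a 10.2-fold change of the ratio (8.75 to 11.9). Tgm1 and Lor are the members with the highest and the lowest ratio between the sections, so this pair gives the largest change. Its interval does not allow for that choice. For each Evpl UMI there were 3.15 Lor UMIs in the fl/fl and 0.504 in the K14-Cre section. For each Ppl UMI there were 1.30 and 4.88 Tgm1 UMIs, a 3.74-fold change (3.01 to 4.65). The makeup of the members' UMIs moved accordingly, from 13.7% to 4.70% for Lor, from 2.61% to 9.15% for Tgm1 and from 4.34% to 9.34% for Evpl. Krtdap kept 58.1% in the fl/fl and 58.4% in the K14-Cre section.

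The sign of the CPM ratio for Tgm1 and Evpl differed between the uppermost and the next step. In the uppermost step Tgm1 stood at 866 CPM in the fl/fl and 1536 CPM in the K14-Cre section, but in the next step at 496 and 290.3 CPM. Evpl stood at 1308 and 1458 CPM in the uppermost step and at 866 and 364 CPM in the next. Keratinocyte list levels in these steps were 90646 and 52266 CPM in the uppermost and 57525 and 22232 CPM in the next step. The log2 ratios of the list were −0.79 and −1.37, beside 0.83 and −0.77 for Tgm1 and 0.16 and −1.25 for Evpl. Tgm1 thus lay above the list at both depths and Evpl in the uppermost step. In the next step the interval of Evpl (−1.47 to −1.04) held the value of the list. The part of keratinocyte content in the change of sign was not tested. Lor was lower in the K14-Cre section at both depths, with log2 ratios of −2.40 and −3.44.

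The basal keratins Krt5 and Krt14 and the suprabasal keratins Krt1 and Krt10 moved differently between the sections. Krt5 stood at 4035 CPM in the fl/fl and 4988 CPM in the K14-Cre keratinocyte-rich spots, and Krt14 at 31202 and 28499.7 CPM, while Krt1 stood at 14210.1 and 2830.3 CPM and Krt10 at 27495 and 4113 CPM. Scaling to the UMIs of the keratinocyte list, which holds these 4 keratins, gave the counts stated above, with log2 ratios of −1.75 for Lor and 1.60 for Tgm1. It moved the median log2 ratio of all genes to 0.74, with 38.0% of genes at least 2-fold higher and 4.24% at least 2-fold lower. A further recount took spots whose keratinocyte list held 5% to 10% of their UMIs in both sections (264 and 86 spots, chosen after seeing the data). The same 2 members passed 2-fold there, with log2 ratios of −1.26 for Lor and 1.12 for Tgm1. The median share of the list was 7.08% in the fl/fl and 6.13% in the K14-Cre spots. Krt1 and Krt10 summed to 19757 and 8333 CPM in them, so these spots were not matched in these 2 keratins. Scaling by edgeR's TMM factors shifted the median log2 ratio of all genes from 0.0037 to −0.69, with 2.23% of genes at least 2-fold higher and 36.4% at least 2-fold lower, and put 7 members at least 2-fold lower. Evpl was then lower in the K14-Cre section, at −0.52. This scaling shifts all genes alike, so the place of Evpl above the median of all genes could not change.

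**Figure D3:**
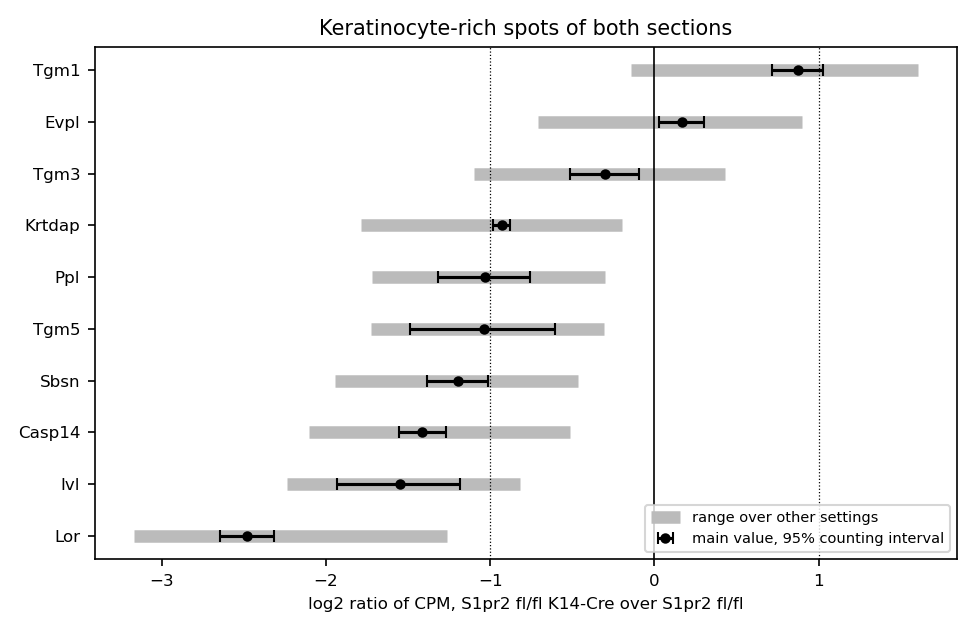
Log2 ratio of CPM between the keratinocyte-rich spots of the K14-Cre and fl/fl sections for each member, with the 95% counting interval (black) and the range over 15 other settings (grey); dotted lines mark 2-fold. Lor lies below −1 in its whole range (−3.17 to −1.26), Tgm1 is positive at 0.87 with a range from −0.14 to 1.60, and the ranges of Evpl and Tgm3 cross 0.

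Along the section, keratinocyte-rich spots were divided from left to right into 4 segments of nearly equal spot number, which are not replicates. Lor ran from 4204 to 4730.1 CPM over the fl/fl segments and from 279 to 1412 CPM over the K14-Cre segments, so it varied 1.13-fold in the former and 5.06-fold in the latter. The K14-Cre segments held from 43 to 139 Lor UMIs each. Tgm1 ran from 686 to 999.9 CPM in the fl/fl and from 1114 to 2284 CPM in the K14-Cre section. Krtdap ran from 16076 to 20861 CPM and from 9355 to 11393 CPM. The ranges of Evpl overlapped, with 1287 to 1549 CPM and 1521 to 1765 CPM, as did those of Ppl and Tgm3. Those of the other members, Ivl, Sbsn, Tgm5 and Casp14 included, lay apart. The share of all genes with ranges apart is not given here, so this is a description only.

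Within each section, keratinocyte-rich spots were ranked and divided into 3 bands of nearly equal spot number. The ranking used the share of Krt1 and Krt10 in the summed UMIs of Krt1, Krt10, Krt5 and Krt14. This share describes the balance of these keratins, and its relation to the layers in a spot was not tested. The median share was 33.9% in the lowest and 73.3% in the highest band of the fl/fl section, but 2.31% and 41.6% in the K14-Cre section, so the bands of the sections do not match in level. The 4 keratins define the ranking and no member enters it. Of the 10 members, 5 were higher in the highest than in the lowest band of the fl/fl section, against 41.9% of 813 genes with at least 100 UMIs. In the K14-Cre section 7 of 10 were higher, against 37.8% of 283 such genes. Only 7 members had 100 UMIs there, the floor applied to all genes, and of these 4 were higher.

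Lor had the largest difference between the bands among the members in both sections. It went from 2370 CPM over 3879 CPM to 7119 CPM in the fl/fl section, a log2 difference of 1.59, and from 359 CPM over 450.4 CPM to 2009 CPM in the K14-Cre section, a log2 difference of 2.48. The intervals of these differences ran from 2.75-fold to 3.29-fold and from 4.10-fold to 7.77-fold and did not overlap. They cover counting error only, and the bands hold different shares of Krt1 and Krt10 in each section. Casp14 was 1.34-fold (1.22 to 1.48) and 2.09-fold (1.63 to 2.67) higher in the highest band. Ivl was 1.59-fold higher in the fl/fl section (1.23 to 2.08), while its K14-Cre interval of 0.722 to 2.88 included 1. Tgm3 ran the other way, with 1076 CPM in the lowest and 602 CPM in the highest band of the fl/fl section and 894 and 385 CPM in the K14-Cre section. Tgm1 was also lower in the highest band, by a factor of 0.729 (0.611 to 0.870) in the fl/fl and 0.640 (0.518 to 0.786) in the K14-Cre section. The members thus did not share 1 pattern: Lor and Casp14 were higher and Tgm1 and Tgm3 lower in the highest than in the lowest band. Tgm1 did not follow the ranking step by step, since its level was lowest in the middle band of both sections, at 658 and 1158 CPM. Ppl differed between the bands in neither section beyond its counting interval.

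**Figure D4:**
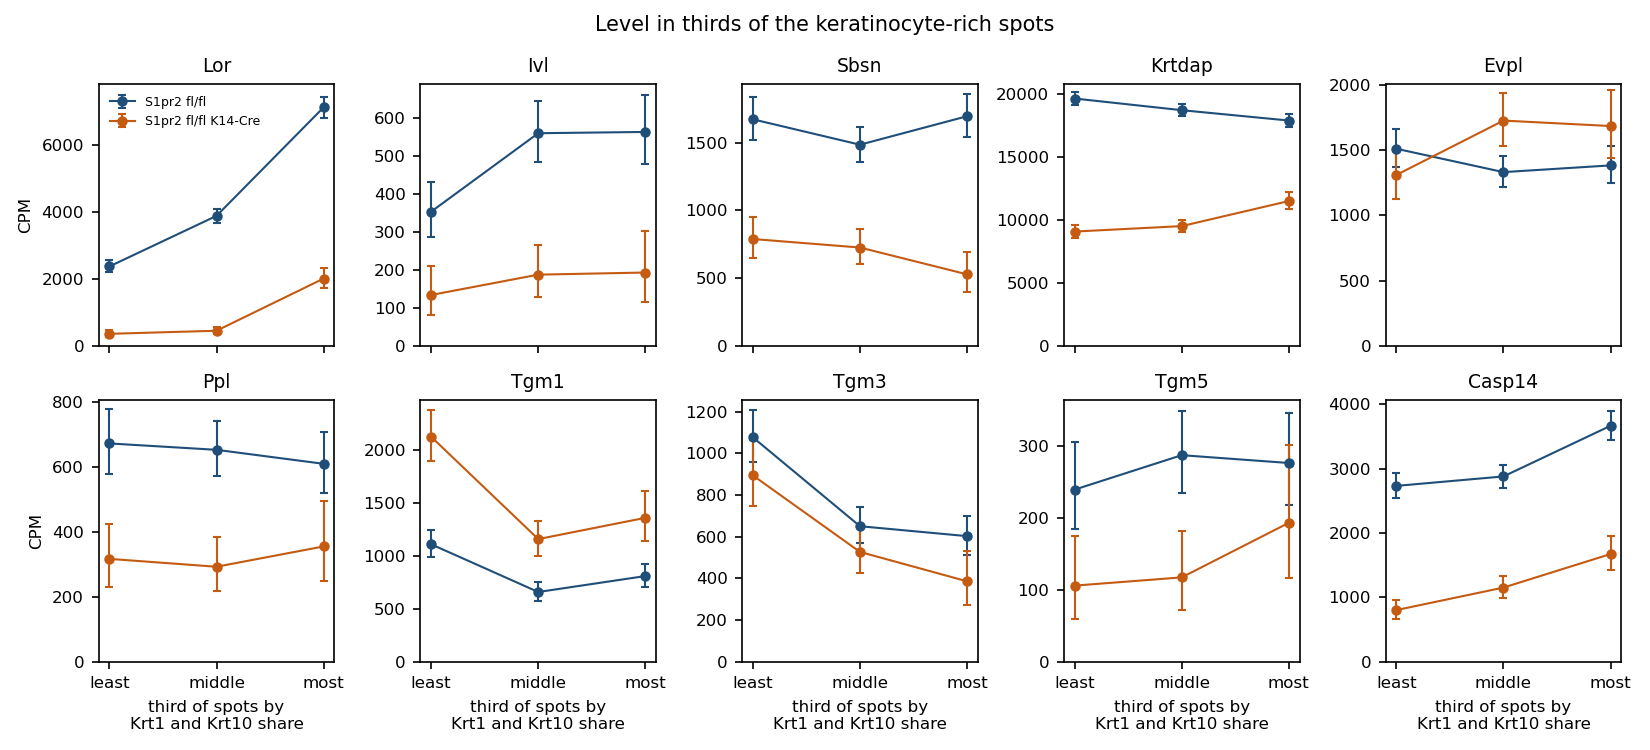
Level of each member in CPM, on axes that start at 0, in the bands of keratinocyte-rich spots with the lowest (least), middle and highest (most) share of Krt1 and Krt10 among the 4 keratins, with exact Poisson 95% intervals, for the fl/fl (blue) and K14-Cre (orange) sections. Lor goes up by 1.59 and 2.48 on the log2 scale from the least to the most, Tgm3 goes down in both sections, and Tgm1 lies higher in the K14-Cre section in every band.

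Among single keratinocyte-rich spots most pairs of members were weakly related. Over the 154 fl/fl keratinocyte-rich spots, Spearman's rho between the levels of 2 members had a median of 0.10 over 45 pairs, was highest for Casp14 with Lor at 0.62 and lowest for Tgm3 with Lor at −0.23. In the 126 K14-Cre spots the median was 0.11, the highest was Krtdap with Casp14 at 0.40 and the lowest Tgm5 with Evpl at −0.19. Spots share the library and differ in depth, and many values are at 0 or 1 UMI, so these coefficients are a description. Over all spots with at least 500 UMIs, which include tissue without epidermis, the median rho was 0.37 in the fl/fl and 0.29 in the K14-Cre section, and the highest were 0.64 for Krtdap with Casp14 and 0.63 for Krtdap with Evpl. Over the same spots the genes whose level was most like that of the summed members were Calm4, Krt14, Krt16, Krt6b and S100a8 in the fl/fl section (Pearson's r of log2 levels from 0.82 to 0.78 over 1096 spots). They were Krt14, Lgals7, Fabp5, Krt5 and Calm4 in the K14-Cre section (0.84 to 0.79 over 947 spots). Over all genes compared the median r was −0.05 and 0.25.

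Other genes of the envelope were taken from lists by function. The 3 lowest (Flg, Rptn, Lce6a) and the 3 highest ratios (Cyp4f39, Plec, Sprr2i) are named by rule, and the other genes were chosen as examples after their values were seen. Of 22 further precursors of the epidermal differentiation complex that reached 100 UMIs, 18 were lower by 2-fold or more in the K14-Cre keratinocyte-rich spots and 0 were higher by as much, against 14.6% and 13% of all genes, with a median log2 ratio of −2.11. This floor counts both sections together, and the fl/fl spots held more UMIs, so it favours genes high in the fl/fl section. Among precursors under the floor, Sprr3 (0 and 6 UMIs), Sprr2k (8 and 12) and Lce1b (0 and 2) were higher in the K14-Cre section. There Lce1b stood at 4.86 CPM and Sprr3 at 14.6 CPM. The mean of the chemosensory receptor genes was 6.82 CPM there and 1.10 CPM in the fl/fl section, so these 2 genes lay near background. Flg2 (57 and 7 UMIs), Lce1m (92 and 1), Lce1g (4 and 0) and Sprr4 (37 and 9) were lower. Flg, which encodes profilaggrin, the precursor of filaggrin stored in keratohyalin granules, was lowest with 10559 CPM in the fl/fl and 549 CPM in the K14-Cre section, 19.2-fold lower. Rptn went from 1789.6 CPM to 99.6 CPM and the late cornified envelope gene Lce6a from 278 CPM to 17.0 CPM. The K14-Cre value of Lce6a rests on 7 UMIs, beside a mean of 6.82 CPM for the chemosensory receptor genes. The small proline-rich genes Sprr1a and Sprr1b, cross-linked precursors of stressed epidermis, were less than 2-fold lower at −0.40 and −0.49 on the log2 scale, and Sprr2i was higher at 0.45. Members of the Lce and Sprr2 families are close copies, and how the probes separate them was not known here.

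Of 10 scaffold and junction genes, 7 were at least 2-fold lower, among them corneodesmosin (Cdsn) at −1.83 and desmoplakin (Dsp) at −1.13, and the cytolinker Plec was higher at 0.45. Dsp is also on the keratinocyte list that chose the spots and served for scaling, so it is not independent of that choice. Of 9 proteases and inhibitors that reached 100 UMIs, 6 were lower by 2-fold or more, such as the kallikrein Klk5 at −2.34, and cathepsin L (Ctsl) was at 0.40. Of 6 genes of the lipid envelope, 4 were at least 2-fold lower, such as the lipoxygenase Alox12b at −1.70, while the hydroxylase Cyp4f39 was at 0.79. Together 35 of these 47 genes were at least 2-fold lower, with a median of −1.48, and 0 were at least 2-fold higher, beside 14.6% and 13% of all genes. The floor of 100 UMIs, which favours genes high in the fl/fl section, also chose these 47 genes and those of the recounts. Klk5 (232 and 21 UMIs) and Alox12b (292 and 41), for example, passed it through the fl/fl section. Scaled to the keratinocyte list, 17 were at least 2-fold lower and 5 higher (Cyp4f39, Plec, Sprr2i, Ctsl and Cers3), beside 4.24% and 38.0% of all genes. In spots of matched keratinocyte share 27 were at least 2-fold lower and 0 higher, beside 13.4% and 8.71% of all genes. Both recounts were chosen after seeing the data. Transglutaminases that mainly act outside the epidermis (Tgm2, Tgm4, Tgm6, Tgm7 and F13a1) all stayed under 100 UMIs over the keratinocyte-rich spots of both sections. Their levels in other spots were not examined here.

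**Figure D5:**
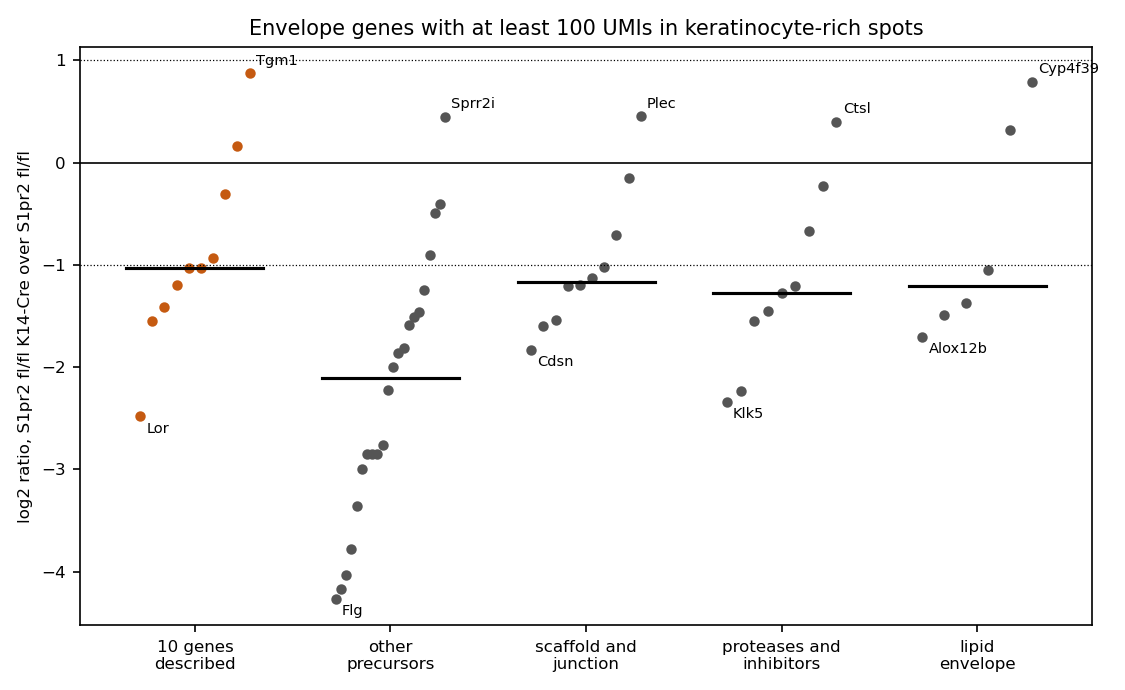
Log2 ratio of CPM between the keratinocyte-rich spots of the K14-Cre and fl/fl sections for the 10 members (orange) and for the other envelope genes with at least 100 UMIs (grey) by list, with the median of each list as a bar; dotted lines mark 2-fold. The medians lie between −2.11 and −1.03, Flg is lowest at −4.27, and Tgm1 at 0.87 and Cyp4f39 at 0.79 are the highest 2 genes.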

How the data were processed

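Visium CytAssist libraries were analysed, made by probe hybridisation on fixed, paraffin-embedded skin cut at 10 µm. The authors deposited a matrix of UMI counts for each section, not normalized and made with Space Ranger 3.0.0 on mm10 per the submitters' processing notes. The probe set version is not given in the sources used here. Spots over tissue numbered 1282 and 981, and 357 array positions occurred in both sections. Sections were grouped by the genotype labels, 1 library per genotype, so no test was made.

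From the counts, CPM per region was computed with Python 3.11.15, numpy 2.4.6, pandas 2.3.3 and scipy 1.17.1. Single values have exact Poisson intervals, shares Clopper-Pearson intervals and ratios between regions conditional binomial intervals, all at 95%. Changes of the UMI ratio between 2 genes have normal intervals on the log scale. Ratios used a pseudocount of 0.5 UMIs, and calls needed 100 UMIs over both regions and 2-fold. Depth used spots in connected groups of at least 20. Named genes were the 10 members, the 3 highest and 3 lowest ratios of the other envelope lists, the 5 genes most like the summed members in each section, S1pr2 and the ranking keratins, and a few further list genes were named as examples after their values were seen. Alternatives changed the share of spots, the minimum UMIs, the scaling (TMM, edgeR 4.0.16), the background, the depth measure and the clustering (Leiden, scanpy 1.11.5, without the members). The members and gene lists were chosen with earlier results of these data known. Envelope list genes without a row in the counts (10 of 39 precursors and 1 of 14 proteases and inhibitors) were not analysed here. The code was tested on simulated data. PCR duplicates are removed by UMIs, but intervals cover counting error only.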

Additional observations from a re-analysis of the deposited data

Results flagged for a closer look

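Krtdap, the most abundant member by UMIs, ran in opposite directions over the keratinocyte-rich spots of the sections. Between the bands with the highest and the lowest share of Krt1 and Krt10, its log2 ratio was −0.13 in the fl/fl section (17898 against 19648 CPM) and 0.34 in the K14-Cre section (11504 against 9078 CPM). It was singled out because the sections differ in sign, and its counting interval kept 1 sign in each section. Evpl (−0.13 and 0.36), Ppl (−0.14 and 0.16) and Sbsn (0.02 and −0.58) also differed in sign between the fl/fl and K14-Cre sections. Their counting intervals in the fl/fl section ran across both signs. These differences were not tested, since each genotype has 1 section, and the bands cover different ranges of the ranking in each section.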

How the results depend on the processing

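No paired analysis was possible because each genotype has 1 section, and for the same reason no replicate could be left out. The log2 ratio of the summed members between sections (−0.94) was negative in all 16 other settings. It was −1.01 with the top 25% of spots, −1.19 with Leiden clusters, −1.31 in the 2 uppermost steps, −1.71 over all spots, −1.63 with TMM and −0.21 scaled to the keratinocyte list. In settings chosen after seeing the data it was −0.86 scaled to Krt5 and Krt14, −0.47 at matched keratinocyte share, −0.98 with other lists not considered and −0.78 with the muscle-rich level taken off. The count of members at least 2-fold higher (0) became 1 scaled to the keratinocyte list, with the mean of spot CPM, at matched share and with the muscle-rich level taken off. The count at least 2-fold lower (6) became 1 scaled to the keratinocyte list and 1 at matched share, and lay between 4 and 8 in the other settings. Beyond the main setting, shares of all genes are given here only with TMM, scaled to the keratinocyte list and at matched share. For the remaining settings the counts of members are therefore a description, and how unusual they are cannot be told. Of the 47 other envelope genes, 35 lower and 0 higher became 17 and 5 scaled to the keratinocyte list, with 27 to 40 lower and 0 higher in the 3 other settings, all chosen after seeing the data. The floor that favours genes high in the fl/fl section chose the 47 genes in each setting. Over all genes, TMM turned 13% higher and 14.6% lower into 2.23% and 36.4%, and the keratinocyte list into 38.0% and 4.24%. Evpl turned to −0.26 in the 2 uppermost steps, −0.71 over all spots and −0.52 with TMM. Tgm1 turned to −0.14 over all spots, and Tgm3 to 0.43 scaled to the keratinocyte list and 0.30 at matched share. The log2 enrichment in keratinocyte-rich spots was 1.53, 1.74, 1.80 and 1.72 in the fl/fl section, and 2.83, 3.12, 3.40 and 3.80 in the K14-Cre section, with the top 10%, the top 25%, Leiden clusters and the 2 uppermost steps, against 1.63 and 2.96. The share of UMIs in the 2 uppermost steps was 74.6% and 90.6% without the bent columns, and in the fl/fl section 67.6% by rank in the column and 67.9% with no rule on connected groups. The cause of these changes was not tested. Ivl with 70 and Tgm5 with 54 UMIs in the K14-Cre keratinocyte-rich spots were limited most by depth.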
